A study of Mus musculus with 6 samples.

Results

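The genes followed here, 10 in all, are expressed by liver endothelium and were measured in whole mouse liver: 5 markers of capillary and vessel endothelium (Pecam1, Cdh5, Cd34, Vwf and Plvap) and 5 secreted angiocrine signals (Wnt2, Wnt9b, Rspo3, Bmp2 and Hgf). They were named for their roles, with earlier results of these data known, and are 10 of the 17975 genes in the deposited table. All 10 were among the 13805 genes with enough reads to be tested. RNA was measured in the livers of 3 WT and 3 Hom mice, 1 liver per mouse. Hom mice were homozygous for a floxed Nek7 allele (Nek7 fl/fl) and carried Alb-Cre, in which the albumin promoter drives Cre in hepatocytes. WT mice are the matching controls, and whether each was a floxed mouse without Cre or a mouse with Alb-Cre alone is not given in the sources used here. Both mouse lines were on a C57BL/6 background. The reporting form of the study lists mice aged from 6 up to 10 weeks, and both sexes for experiments on knockout mice. The paper describes liver fibrosis in Hom mice at an age of 5 months. The sex and exact age of each of the 6 sequenced mice were not used here. Cre in this model is directed at hepatocytes, so the endothelial and stellate cells known to express these genes were not its target.

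Liver sinusoids are lined by a specialised endothelium with open pores, no continuous basement membrane and low levels of the markers typical of capillaries elsewhere. A gain of such markers, with a loss of pores, is known as capillarization. The endothelium also sends signals to its neighbours. Wnt2, Wnt9b and the R-spondin Rspo3 act on hepatocytes around the central vein, Bmp2 and Bmp6 tell hepatocytes to make the iron hormone hepcidin, and Hgf, made largely by stellate cells as well as endothelium, is a growth signal read by the receptor Met.

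RefSeq promoter windows (build GRCm38.p6, 250 bases before to 50 bases after the start) were at hand for 4 of the 10 genes. The windows of Cd34 and Wnt2 are shown because these genes passed the test in opposite directions. The strand of the gene is given in brackets, and capitals mark matches to the ETS motif AGGAAG or CGGAAG on either strand, the motif of a factor family that endothelial promoters often carry.
Cd34, chr1:194938571-194938870 (+): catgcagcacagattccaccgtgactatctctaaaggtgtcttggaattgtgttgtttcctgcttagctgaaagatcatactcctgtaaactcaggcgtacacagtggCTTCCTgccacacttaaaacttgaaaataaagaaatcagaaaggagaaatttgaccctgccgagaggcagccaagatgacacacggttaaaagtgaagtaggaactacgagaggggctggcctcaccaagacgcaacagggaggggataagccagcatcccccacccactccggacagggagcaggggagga
Wnt2, chr6:18030396-18030695 (-): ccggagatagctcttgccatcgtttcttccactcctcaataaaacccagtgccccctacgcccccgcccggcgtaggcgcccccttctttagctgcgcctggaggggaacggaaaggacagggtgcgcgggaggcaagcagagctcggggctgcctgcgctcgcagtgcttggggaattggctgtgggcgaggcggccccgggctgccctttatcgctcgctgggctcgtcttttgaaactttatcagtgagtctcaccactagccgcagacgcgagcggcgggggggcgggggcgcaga
The Cd34 window held 1 ETS match, on the strand opposite the gene. The Wnt2 and Wnt9b windows held none, and the 2 windows of Hgf held 2 and 1. An ETS match was present in 46.5% of all 32851 promoter windows of this length. None of the 5 windows held the GATA motif AGATAA, present in 11.2% of all windows, or the TCF/LEF motif CTTTGA, present in 16.0%. No match overlapped another, and the matches describe letters only.

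Each library held between 19349418 and 19730236 estimated reads, and no library pair of a group was alike within sampling noise. Nek7, the targeted gene, was at 62.9, 69.1 and 63.6 CPM (reads scaled to a fixed total with TMM factors) in WT and at 14.5, 18.1 and 16.7 CPM in Hom. Nek7 therefore fell by 1.99 on the log2 scale (SE 0.10, adjusted p = 1.59e-04), in the direction of the labels. Hom replicate 1 stood apart from the other livers in genes of the Y chromosome. It had 0 reads of Ddx3y and of Kdm5d, against at least 243 in each other liver. Eif2s3y had 4 reads there, against at least 582, and Uty had 149, against at least 464. Results are therefore also given without that liver. Depth scaling matters for these genes. TMM factors ran from 0.806 to 0.924 in WT and from 1.09 to 1.23 in Hom, and with library size alone the median gene stood 0.45 higher in Hom on the log2 scale. Summed hepatocyte markers spanned 185160 to 221191 CPM in WT and 87625 to 128163 CPM in Hom. Of 20 markers 14 were lower and none higher, where 20.1% and 21.5% of all tested genes were. With library size alone 8 were lower, and without Hom replicate 3, 7 were.

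In Hom livers Cd34 and Vwf rose, Plvap, Wnt2 and Bmp2 fell, and Pecam1, Cdh5, Wnt9b, Rspo3 and Hgf did not pass the test. The comparison addresses whether endothelial transcripts differ between whole livers of Hom and WT mice. The paper reports diffuse fibrosis and inflammatory cell infiltration in Hom livers. Effects of Nek7 loss and of that liver disease, where present, cannot be told apart here. By edgeR's quasi-likelihood test with a Benjamini-Hochberg adjusted p under 0.05, 3 of the 10 were lower, where 20.1% of all tested genes were lower, and 2 were higher, where 21.5% of all tested genes were higher (41.7% in either direction). With a log2 fold change of at least 1 in either direction as well, these 3 and 2 genes all passed, where 4.17% of all genes were lower and 13.2% higher. With library size alone 1 was lower and 3 higher, where 4.65% and 47.6% of all genes were. Without any overlap between groups, 4 were below WT in Hom (27.0% of all genes) and 2 above (28.7% of all genes). At the threshold without a minimum fold the counts lie near the background, and so does the non-overlap count in total, where 55.6% of all genes did not overlap. In bulk tissue a fall can come from fewer endothelial cells or from less RNA per cell, which cannot be told apart.

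**Figure D1:**
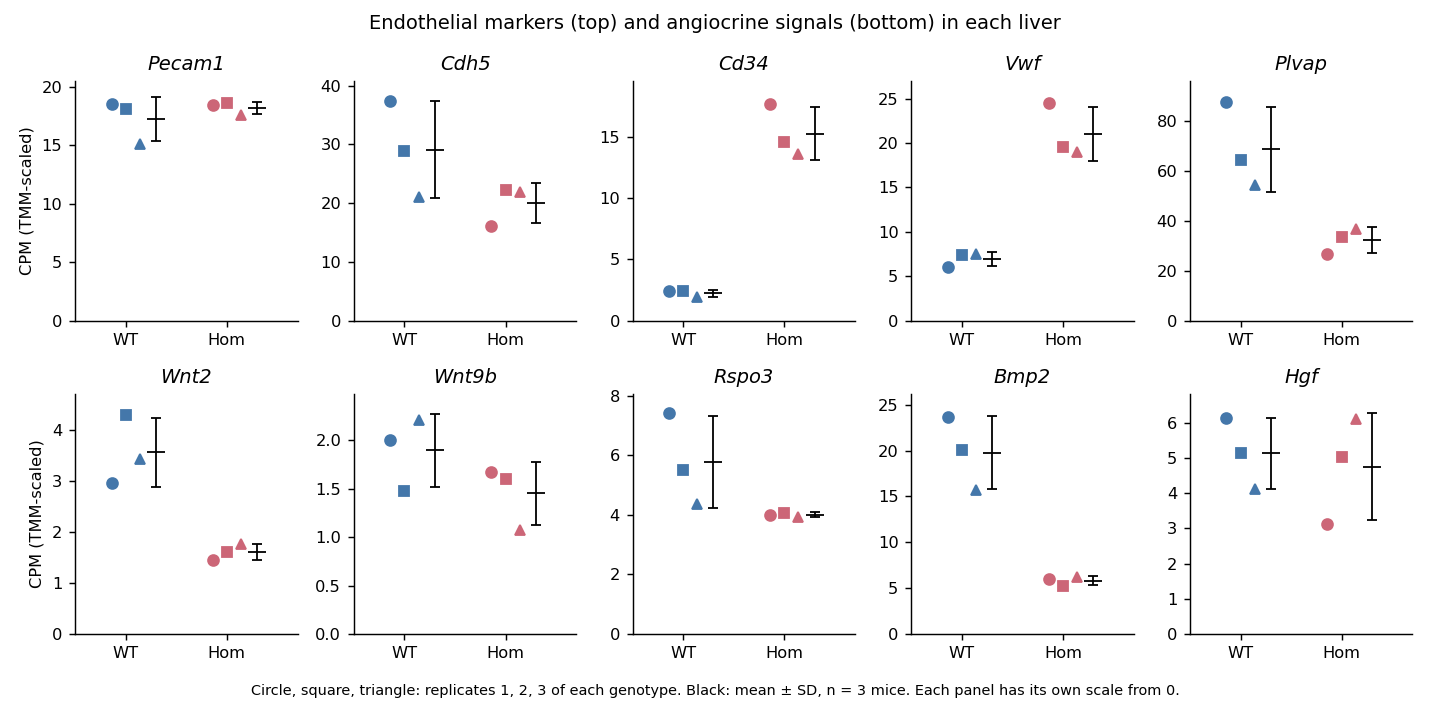
CPM (TMM-scaled, vertical axes, each from 0) of the 10 genes in every liver, with markers in the top row and signals in the bottom row; circles, squares and triangles are replicates 1, 2 and 3, and black bars are the mean ± SD of 3 mice. Cd34 and Vwf lie above WT in each Hom liver, and Plvap, Wnt2, Bmp2 and Rspo3 lie below it.

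Cd34, a surface sialomucin of capillary endothelium that is also carried by fibroblasts and blood progenitors, showed the largest log2 fold change of the 10. It was at 2.40, 2.44 and 1.90 CPM in WT and at 17.7, 14.6 and 13.6 CPM in Hom livers. Each Hom liver was far above each WT liver. The means, 2.25 ± 0.298 and 15.3 ± 2.14 CPM (SD, n = 3), gave a log2 fold change of 2.76 (SE 0.17), 6.78-fold, by edgeR's quasi-likelihood test with a Benjamini-Hochberg adjusted p of 2.24e-04. Without Hom replicate 1, the log2 fold change was 2.64. Under library size alone it was 3.21.

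Vwf, the von Willebrand factor that endothelium stores for platelet adhesion, was at 6.03, 7.37 and 7.49 CPM in WT and at 24.5, 19.6 and 19 CPM in Hom. The groups did not overlap. The log2 fold change was 1.59 (SE 0.15), 3.02-fold, with a Benjamini-Hochberg adjusted p of 6.37e-04. Without Hom replicate 1 it was 1.47. Markers of fibroblasts and platelets were followed with Cd34 and Vwf, where 20.1% of all tested genes were lower and 21.5% higher. Stellate and fibroblast markers summed to 649 to 794 CPM in WT and 999 to 1079 CPM in Hom, and 10 of 20 rose while 4 fell. Lum, Pdgfra and Col1a1, which were chosen after their values were seen, rose by 2.48, 2.11 and 3.32 on the log2 scale. The 4 that fell were Vipr1, Ecm1, Reln and Ngfr, at -2.80, -2.30, -1.55 and -1.48. No marker of that list was at 0 in every liver. Platelet and megakaryocyte markers summed to 8.66 to 17.0 CPM in WT and 11 to 12.6 CPM in Hom, and 1 of 5 tested, Pf4, rose, a call lost without Hom replicate 1, Hom replicate 3, WT replicate 1 or WT replicate 2, while 1 fell without WT replicate 3. The part of these cells in the Cd34 and Vwf differences was not tested.

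Plvap, which forms the diaphragms of endothelial pores and vesicles, was the most abundant of the 10 per length and fell. It was at 87.6, 64.4 and 54.2 CPM in WT and at 26.8, 33.4 and 36.8 CPM in Hom. The lowest WT liver was above the highest Hom liver. Hom livers held 47.0% of the WT mean, a log2 fold change of -1.09 (SE 0.20, Benjamini-Hochberg adjusted p = 0.00578). Without Hom replicate 1 the value was -0.97. With library size alone it was -0.64 and no longer past the threshold (adjusted p = 0.0614).

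Pecam1, the junction and adhesion molecule CD31, and Cdh5, the VE-cadherin that holds endothelial junctions together, are carried by all endothelium. Pecam1 was at 18.5, 18.1 and 15.1 CPM in WT and at 18.4, 18.6 and 17.6 CPM in Hom. The groups overlapped, with a log2 fold change of 0.08 (SE 0.11, Benjamini-Hochberg adjusted p = 0.586). Scaling decided this call, since library size alone gave 0.53 (adjusted p = 0.0171). Cdh5 was at 37.4, 28.9 and 21.0 CPM in WT and at 16.0, 22.2 and 21.8 CPM in Hom. Its WT livers spread widely and WT replicate 3 lay inside the Hom range. The log2 fold change was -0.54 (SE 0.22, Benjamini-Hochberg adjusted p = 0.0920), and without WT replicate 3 it was -0.73 (adjusted p = 0.0283).

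**Figure D2:**
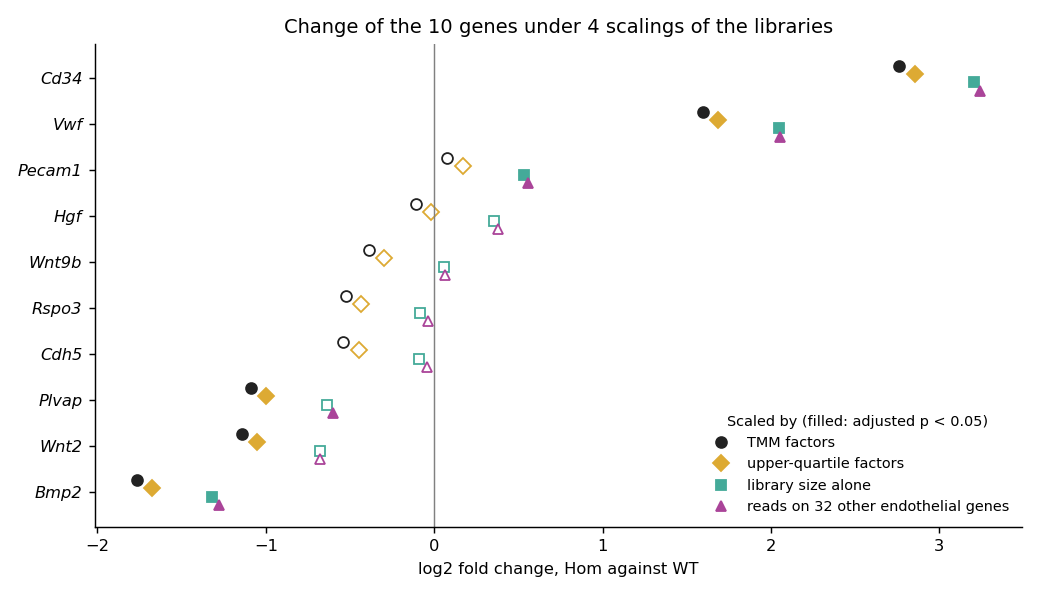
Log2 fold change of Hom against WT (horizontal axis) for the 10 genes under 4 scalings of the libraries; filled symbols have an adjusted p under 0.05. Cd34, Vwf and Bmp2 are filled under all 4, Plvap under 3 and Wnt2 under 2, while Pecam1 is filled only with library size alone and with endothelial reads.

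Scaling moved the 10 genes together, because new library factors shift every gene by nearly the same amount. Taken relative to the median gene, their log2 fold changes differed by at most 0.014 between TMM factors and library size alone. Bmp2, for example, stood at -1.76 and -1.77. That near equality was fixed in advance and does not show which scaling is right. With reads on 32 other shared endothelial genes as library size, an alternative chosen after seeing the data, 2 of the 10 were lower and 3 higher (3.64% and 42.8% of all genes). Bmp2 then fell by 1.28, Plvap fell by 0.60, and Cd34, Vwf and Pecam1 rose by 3.24, 2.05 and 0.56. Ratios between members need no scaling at all. The TPM ratio of Cd34 to Pecam1 was 0.164 to 0.170 in WT and 0.978 to 1.21 in Hom. Plvap to Pecam1 was 5.66 to 7.56 in WT and 2.33 to 3.31 in Hom. Bmp2 to Pecam1 was 0.942 to 1.14 in WT and 0.251 to 0.315 in Hom, so none of these ratios overlapped between groups.

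Per length, the order of the 10 genes within a liver differed between groups. In WT the TPM means ran from Plvap (51.3 ± 18.8) through Cdh5, Bmp2, Pecam1, Rspo3, Hgf, Wnt2 and Cd34 to Vwf (1.15 ± 0.0173) and Wnt9b (0.613 ± 0.153). In Hom livers Plvap was again first, at 36.6 ± 7.78 TPM, followed by Cd34 at 13.6 ± 0.962 TPM, up from rank 8 to rank 2. Bmp2 went from rank 3, at 8.21 ± 2.51 TPM, to rank 8, at 3.66 ± 0.312 TPM. Neighbours whose livers overlapped, and so were not told apart, were Cdh5 with Bmp2, Bmp2 with Pecam1, Rspo3 with Hgf and Cd34 with Vwf in WT. In Hom they were Cd34 with Pecam1, Pecam1 with Cdh5, Vwf with Hgf, Hgf with Rspo3 and Rspo3 with Bmp2. FPKM gave the same ranks.

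**Figure D3:**
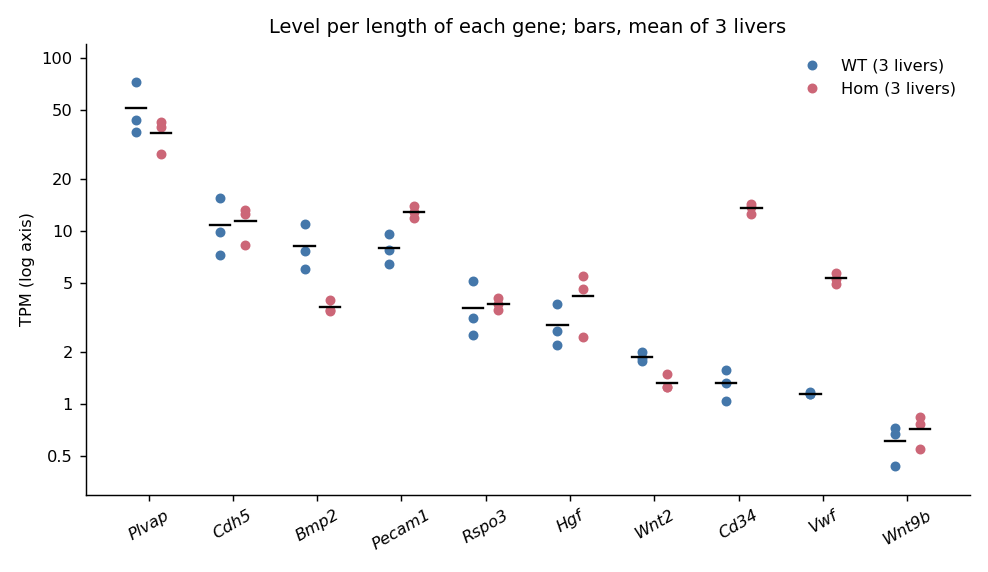
TPM, a level per length, of each gene in every liver (log vertical axis), in the order of the WT means; points are single livers and bars the mean of 3. Plvap is highest in both groups, and Cd34 and Vwf stand far higher in Hom than in WT livers.

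Among the signals, Bmp2 changed most. Bmp2, a ligand of the bone morphogenetic protein family that controls hepatocyte hepcidin, was at 23.6, 20.0 and 15.7 CPM in WT and at 5.97, 5.23 and 6.25 CPM in Hom. Each Hom liver was well below each WT liver. Hom livers held 29.4% of the WT mean, a log2 fold change of -1.76 (SE 0.17, Benjamini-Hochberg adjusted p = 7.44e-04). Without Hom replicate 1 it was -1.78.

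Wnt2, a ligand that central endothelium sends to neighbouring hepatocytes, was at 2.96, 4.30 and 3.44 CPM in WT and at 1.45, 1.61 and 1.77 CPM in Hom. The groups did not overlap. Hom livers held 45.1% of the WT mean, a log2 fold change of -1.14 (SE 0.23, Benjamini-Hochberg adjusted p = 0.00865). The call rested on 53, 67 and 56 reads in WT and 31, 39 and 41 in Hom, and without Hom replicate 1 it was -1.08. With library size alone the change was -0.68 (adjusted p = 0.0523). Wnt2 was also the only one of the 10 with deposited counts that were not exactly whole in any of the 6 livers, and the length its FPKM implies ran from 2389 to 3107 bases.

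Rspo3, the R-spondin that strengthens Wnt signals around the central vein, was at 7.42, 5.51 and 4.36 CPM in WT and at 4.01, 4.08 and 3.92 CPM in Hom. Each Hom liver was below each WT liver, yet the log2 fold change of -0.53 (SE 0.22) did not pass (Benjamini-Hochberg adjusted p = 0.0938). Without WT replicate 3 it was -0.70 (adjusted p = 0.0393), and with library size alone it was -0.085. Wnt9b, the second Wnt ligand of central endothelium, was at 2.01, 1.47 and 2.21 CPM in WT and at 1.68, 1.61 and 1.08 CPM in Hom, on 23 to 39 reads a liver. Its groups overlapped, with a log2 fold change of -0.38 (SE 0.29, adjusted p = 0.322).

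Hgf, the ligand of the receptor Met, was at 6.14, 5.13 and 4.11 CPM in WT and at 3.12, 5.03 and 6.12 CPM in Hom. The groups overlapped throughout. Its log2 fold change was -0.11 (SE 0.28, Benjamini-Hochberg adjusted p = 0.781), and without Hom replicate 1 it was 0.12.

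The genes on which these signals act were read from lists of Wnt, BMP and HGF components. Over all tested genes, 20.1% were lower and 21.5% higher. Wnt target genes of the pericentral hepatocyte were lower in 9 of 18 and higher in 1, with a median log2 fold change of -0.68. Their summed level, to which Cyp2e1 gave more than any other gene, was 12058 to 14112 CPM in WT and 1631 to 3620 CPM in Hom. Cyp2e1, a drug-metabolising enzyme of that zone, fell by 2.95 (adjusted p = 0.00406), from a mean of 8199 to 1064 CPM. Its Hom livers were at 395, 1398 and 1400 CPM, with replicate 1 the lowest. Glul, the glutamine synthetase of the cells next to the vein, was at 1421, 1197 and 1320 CPM in WT and 333, 822 and 734 CPM in Hom, a log2 fold change of -1.06 (adjusted p = 0.0357). Glul lost its call with library size alone, with endothelial reads as library size, and with a replicate block, with or without a gene length correction. The call was also lost without Hom replicate 3 or any 1 of the WT livers. Without Hom replicate 1 Glul kept its call, at -0.76. Notum, a secreted Wnt inhibitor and target, fell by 1.53 (adjusted p = 6.63e-04) and Lhpp, a phosphatase, by 0.96. Slc13a3, a dicarboxylate transporter and the 1 higher gene, gave 0.88 and lost its call without Hom replicate 1 (0.82, adjusted p = 0.0569), Hom replicate 2, WT replicate 2 or WT replicate 3. Axin2, a widely used Wnt target, and Lgr5, the R-spondin receptor, had log2 fold changes of -0.32 and -0.40 and did not pass. Both turned to values above 0 with library size alone. Rnf43, Znrf3, Nkd1, Sp5, Tbx3 and Rhbg of this list did not pass either, at 0.27, -0.16, -0.32, -0.37, -0.21 and -0.05. Hepatocyte markers also moved with these targets (above), and their part was not tested.

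A list of other Wnt ligands, Rspo1 and the secretion genes Wls and Porcn was higher in 5 of 10 tested and lower in none, or lower in 1 without Hom replicate 1. Wnt5b, a non-canonical ligand, rose by 1.25 and Wls, which carries Wnts to the surface, by 0.90. Wnt receptors and inhibitors were higher in 5 of 18 tested and lower in none, beside 21.5% and 20.1% of all tested genes. Scaled by library size alone, 10 were higher, and without WT replicate 1, 2 were lower. Fzd4, a Frizzled receptor, rose from 7.25 ± 1.11 to 14 ± 0.856 CPM (SD, n = 3), and Dkk3, a secreted protein of the Dickkopf family, rose from 3.80 ± 1.49 to 17.3 ± 1.35 CPM. Their log2 fold changes were 0.95 and 2.18.

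Unlike Bmp2, Bmp6 rose. Bmp6, the other ligand that drives hepcidin, was at 5.58, 6.22 and 4.24 CPM in WT and at 31.5, 21.5 and 29.6 CPM in Hom. No Hom liver came near the WT range. Its log2 fold change was 2.36 (SE 0.20, Benjamini-Hochberg adjusted p = 4.94e-04), and without Hom replicate 1 it was 2.26. Gdf2, which encodes BMP9, fell by 1.03, and Twsg1, an extracellular BMP modulator, was 0.30 higher, a call lost without Hom replicate 2, Hom replicate 3, WT replicate 2 or WT replicate 3. Bmp4, Bmp5 and Bmp7 did not pass, at 0.79, -0.25 and -0.45. In all, 1 of 10 tested ligands and inhibitors fell and 4 rose, but 2 fell without Hom replicate 1 or WT replicate 3, and 2 rose without Hom replicate 3, WT replicate 2 or WT replicate 3. Of 15 tested receptors and transducers, 2 fell and 4 rose, near the shares of all tested genes (20.1% lower and 21.5% higher). The receptors Bmpr1a and Acvr1, among the 4, rose by 0.43 and 0.52. Scaled by library size alone, 9 rose and none fell. The 2 that fell, Tfr2 and Smad9, had log2 fold changes of -0.46 and -0.97 and lost their calls with library size alone. The lower count was 1 without Hom replicate 1 or Hom replicate 2 and 0 without Hom replicate 3 or WT replicate 2. BMP target genes were lower in 2 of 11 and higher in 1, beside 20.1% and 21.5% of all tested genes. For these targets, 1 was lower without Hom replicate 1 or Hom replicate 3, and 2 were higher without WT replicate 2. Hamp, hepcidin, was at 1066, 291 and 256 CPM in WT and at 151, 292 and 118 CPM in Hom. WT replicate 1 lay far above the rest, the groups overlapped, and the log2 fold change of -1.52 did not pass (adjusted p = 0.0861). The near-identical Hamp2 was at 75.4, 6.54 and 11 CPM in WT and at 1.26, 2.76 and 0.775 CPM in Hom, and reads of the pair may be split between them. WT replicate 1 was again far above the rest. Hamp2 gave -4.27 (adjusted p = 0.0178), or -2.45 without WT replicate 1, and lost its call without Hom replicate 1 (adjusted p = 0.0539) or Hom replicate 3. Tmprss6, the protease that restrains hepcidin, was 0.64 lower and lost its call with library size alone, Bambi, a decoy receptor, was 1.07 higher, and Id1 and Smad7 did not pass, at -0.37 and -0.25.

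A list of 12 genes held proteases that activate HGF, inhibitors of such proteases, and Met with genes that act at it. Of these 3 fell and 7 rose, where 20.1% of all tested genes were lower and 21.5% higher. Among the 7 were the protease inhibitors Spint1 and Spint2 and the ubiquitin ligase Cbl, at 2.66, 0.39 and 0.48. With library size alone none fell and 8 rose. The lower count was 1 without Hom replicate 2, Hom replicate 3, WT replicate 2 or WT replicate 3, and Hpn was among the calls lost each time. Met, the receptor, did not pass, with a log2 fold change of 0.08 (adjusted p = 0.463). It was higher by 0.53 with library size alone (adjusted p = 0.00216). Hgfac, the hepatocyte-made protease that activates HGF, was 0.76 lower, and Hpn, the membrane protease hepsin, 0.35 lower. Hgfac lost its call with library size alone and Hpn turned to a value above 0. Plat, tissue plasminogen activator, rose from 0.729 ± 0.149 to 11.7 ± 2.03 CPM, a log2 fold change of 4.00 (adjusted p = 1.83e-04). Tmprss2, a membrane serine protease, rose by 2.02.

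**Figure D4:**
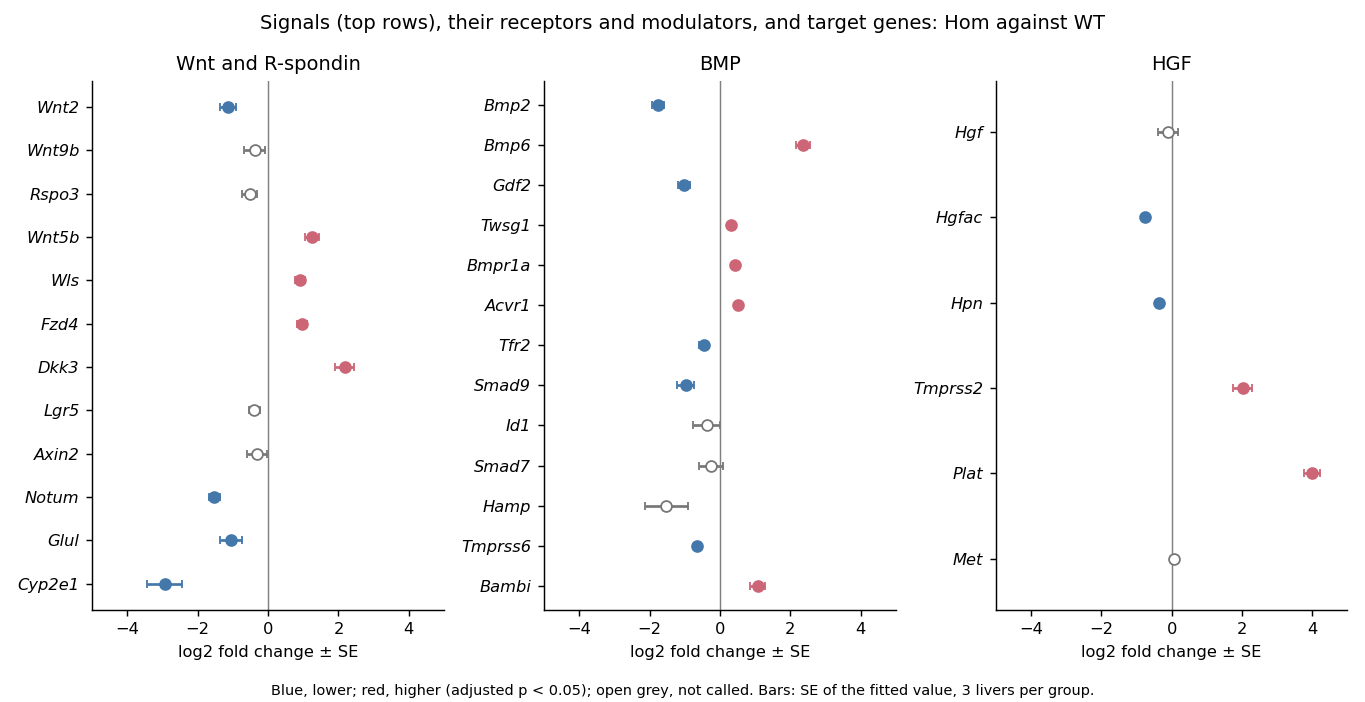
Log2 fold change (horizontal axis, ± SE of the fit over 3 livers a group) of the signals in the top rows and of their receptors, modulators and target genes beneath, for Wnt, BMP and HGF; blue is lower, red higher and open grey not past the threshold. Bmp2 at -1.76 and Bmp6 at 2.36 lie on opposite sides of 0.

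The rest of the endothelial transcripts were read from 4 lists, beside 20.1% lower and 21.5% higher over all tested genes. Of 32 other shared endothelial genes, 14 fell and 1 rose, with a median log2 fold change of -0.35 where that of all genes was -0.0018, and with library size alone 3 fell and 4 rose, with a median of 0.094. Kdr, the main VEGF receptor, was at 33.7, 39.9 and 27.5 CPM in WT and at 10.8, 13.4 and 12 CPM in Hom. Kdr fell by 1.48 (adjusted p = 9.00e-04) and Ptprb, the endothelial phosphatase VE-PTP, by 1.03. Tek, the angiopoietin receptor, was 0.53 lower and lost its call with library size alone, and Ecscr, an endothelial surface protein, was 1.23 higher. The summed level of this list was 395 to 508 CPM in WT and 334 to 338 CPM in Hom. That gap depended on TMM scaling, since as a share of all reads the list took 0.0330 to 0.0466% in WT and 0.0367 to 0.0413% in Hom, which overlap.

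Sinusoidal endothelial genes fell in 12 of 19 and rose in 1, the Bmp6 described above, with a median of -0.61. Scaled by library size alone, 6 fell and 3 rose, with a median of -0.16. Ehd3, a membrane-trafficking protein of sinusoidal cells, fell from 92.4 to 20.3 CPM, a log2 fold change of -2.19, and Oit3 fell by 1.85. Stab2, the hyaluronan scavenger receptor, was at -0.88 and lost its call with library size alone. Lyve1, another hyaluronan receptor, was at 0.29 and did not pass, with the highest value, 12.6 CPM, in Hom replicate 1. In the large-vessel list, 4 of 15 tested rose and 1 fell, with a median of 0.50, and with library size alone 9 rose and none fell. Gja5, an arterial connexin, rose by 1.54 from under 1 CPM in each WT liver, and Nr2f2, a venous transcription factor, by 0.50. Dll4, a Notch ligand of arteries, was at -0.62. Without Hom replicate 1, the lower and higher counts were 9 and 1 of the shared list, 10 and 1 of the sinusoidal list, and 0 and 4 of the large-vessel list. The lower count of the shared list was 9 without WT replicate 1 as well, and 7 without Hom replicate 2, Hom replicate 3 or WT replicate 2. The lower gene of the large-vessel list, Dll4, lost its call when any 1 liver but WT replicate 3 was left out. The lists overlap, and no test was made of the difference between them.

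**Figure D5:**
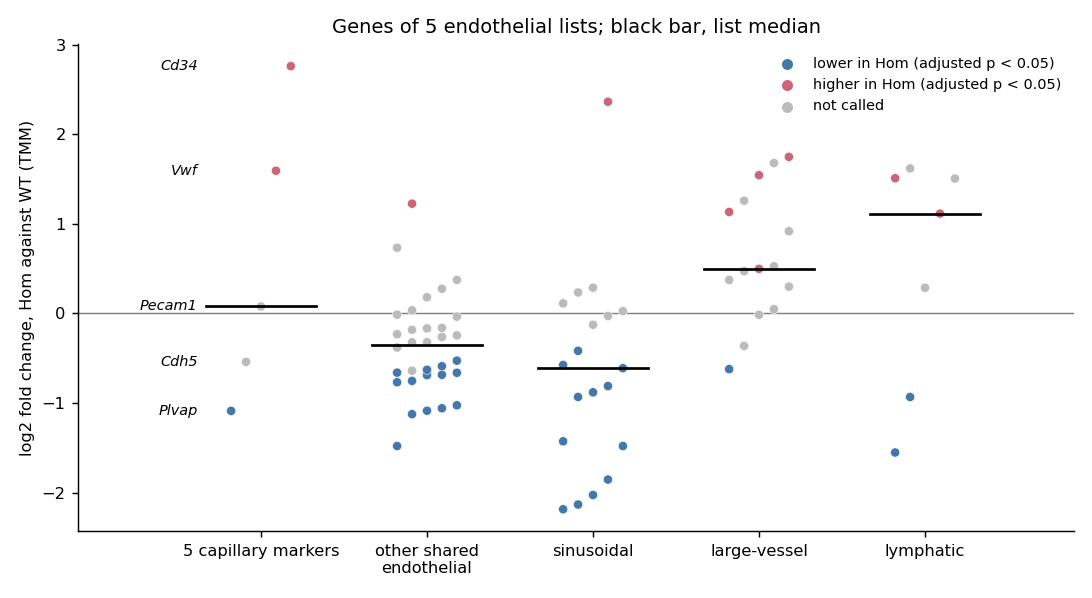
Log2 fold change (vertical axis, TMM) of single genes of the 5 capillary markers and of 4 other endothelial lists; colours give the calls and black bars the list medians. The median is -0.35 for the shared list, -0.61 for the sinusoidal list and 0.50 for the large-vessel list.

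Markers of other liver cells were counted in the same way, beside 21.5% higher and 20.1% lower over all genes, and their part in the results above was not tested. Cholangiocyte markers rose in 10 of 12, and summed to 77.5 to 106 CPM in WT and 640 to 902 CPM in Hom. Spp1, osteopontin, made up most of the Hom sum, and the other 11 summed to 48.2 to 51.4 CPM in WT and 120.1 to 169.9 CPM in Hom. Proliferation genes rose in 10 of 10, but in 3 without Hom replicate 2 and 6 without Hom replicate 3. Macrophage and Kupffer cell markers were higher in 5 of 16 and lower in 2, a share near that of all genes. The higher count was 10 with library size alone or without WT replicate 1, and 3 without Hom replicate 2, Hom replicate 3 or WT replicate 2. Leukocyte markers were higher in 3 of 10 tested, in 5 without WT replicate 1, in 1 without WT replicate 3 and in 0 without Hom replicate 2, Hom replicate 3 or WT replicate 2. Mesothelial markers were higher in 3 of 6 tested and lower in none, but 2 were lower without Hom replicate 1. That liver had 181 reads of Msln and 200 of Upk3b, where the other Hom livers had 5 and 9 of Msln and 3 and 20 of Upk3b. Smooth muscle and pericyte markers were higher in 2 and lower in 1 of 7 tested, and single left-out livers gave 1 to 2 higher and 0 to 1 lower. No marker of these lists was at 0 in every liver.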

How the data were processed

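Whole-liver RNA was extracted with Trizol and sequenced on the DNBSEQ platform by BGI. The authors deposited, for 17975 genes and each of the 6 livers, expected counts, which are estimated reads per gene not scaled between samples. The authors also deposited FPKM, divided by gene length and library size, and TPM, which add up to an equal sum for every library. The submitters' processing notes name HISAT2 2.0.4, Bowtie2 2.2.5, RSEM 1.2.12 and build mm9, with no role. Annotation and strandedness are not given in the sources used here. The 6 deposited mean columns were not used, because their names are crossed: for all 17975 genes the mean named Ctrl equals the mean of the Hom livers within a tolerance of 1e-06.

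Expected counts were rounded and tested with edgeR 4.0.16 (R 4.3.3): after filterByExpr, which left 13805 genes, and TMM scaling, Hom was set against WT by glmQLFit and glmQLFTest (3 livers each, two-sided), with Benjamini-Hochberg adjustment over all genes tested and a threshold of 0.05. CPM are TMM-scaled, and levels of different genes were compared only as TPM. The script was tested on simulated data. Total counts were 19349418 to 19730236 per library. With 3 livers a group, precision is limited by the spread between mice.

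The 10 genes and all lists were chosen with earlier results of these data known. Named genes were the 10, Nek7, a set of receptors and targets, and in each endothelial and pathway list up to 2 genes a direction with the smallest adjusted p, a mean of at least 1 CPM and no overlap. WT and Hom share replicate numbers but are different mice, and same-numbered livers did not deviate together (correlations -0.11, -0.056 and -0.049). Alternatives were DESeq2 1.42.0, library size alone, upper-quartile factors, other count filters, a gene length correction, a replicate block, a minimum log2 fold change of 1, leaving out each liver and, chosen after seeing the data, reads on 32 endothelial genes as library size. Promoters are from RefSeq GRCm38.p6, and coordinates on mm9 were not used.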

Additional observations from a re-analysis of the deposited data

How the results depend on the processing

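Cd34, Vwf and Bmp2 kept direction and call in all 15 alternatives, at 2.64 to 3.24, 1.47 to 2.05 and -1.91 to -1.28. Scaling moved most other values. With library size alone 642 genes were lower and 6574 higher (91.1% of calls higher, against 51.7% with TMM), and 1 of the 10 genes was lower. With reads on other endothelial genes as library size, 502 were lower and 5906 higher (92.2% of calls higher), and upper-quartile factors gave 62.8%. A minimum log2 fold change of 1 left 575 lower and 1825 higher. Leaving out single livers gave 1767 to 2750 lower and 1986 to 3057 higher genes, and 3 to 5 lower among the 10, where 5 came without WT replicate 3, which added Cdh5 and Rspo3. The replicate block gave 2214 lower and 2383 higher genes and left the 3 lower and 2 higher among the 10; it is a shared number only. Log2 fold changes that turned sign with library size alone and with endothelial reads were Wnt9b (0.059 and 0.063), Hgf (0.35 and 0.38), Lgr5 (0.056 and 0.078), Axin2 (0.16 and 0.17), Id1 (0.089 and 0.15), Smad7 (0.24 and 0.26), Vegfa (0.24 and 0.25) and Hpn (0.10 and 0.12), and Tfr2 did so with endothelial reads (0.012). Leaving out single livers gave -0.015 to 0.13 for Pecam1 (below 0 without WT replicate 3), -0.33 to 0.12 for Hgf (0.12 without Hom replicate 1 and 0.039 without WT replicate 1), -0.37 to 0.60 for Lyve1 (below 0 without Hom replicate 1) and -0.48 to 0.22 for Smad7 (above 0 without WT replicate 2). Over the 49 other named genes, 639 of 733 comparisons left direction and call as they were, 76 lost the call, 3 gained it and 15 turned sign; of 987 comparisons of list counts and medians, 217 moved. The cause of these shifts was not tested. Among the 10, Wnt9b had 23 to 39 reads a liver, and Cd34 31 to 43 in WT.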

Other observations

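Genes of lymphatic endothelium and of the VEGF and angiopoietin signals were also read, beside 20.1% lower and 21.5% higher over all tested genes. Of 7 lymphatic genes, 2 rose and 2 fell, with 1 higher when any 1 liver but WT replicate 3 was left out. Prox1, a transcription factor of lymphatic endothelium that hepatocytes also carry, rose by 1.12 on the log2 scale (Benjamini-Hochberg adjusted p = 0.0135), and Pdpn, podoplanin, gave 1.51 with a call lost when any 1 liver but WT replicate 3 was left out, and 2.28 without WT replicate 3. Reln, reelin, which stellate cells also make, fell from 62.1 ± 9.0 to 21.2 ± 5.82 CPM (SD, n = 3). Flt4, the receptor of VEGF-C, was at -0.93 and lost its call with library size alone.

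Of 18 tested genes of the VEGF and angiopoietin signals, 5 fell and 3 rose, with a median of -0.19. Over all tested genes 20.1% were lower and 21.5% higher. With library size alone 1 fell and 5 rose, with a median of 0.27, and without Hom replicate 2 or Hom replicate 3, 3 fell and 1 rose. Vegfa, the main ligand of Kdr, was at 141, 150 and 143 CPM in WT and at 141, 118 and 114 CPM in Hom. Its log2 fold change of -0.21 did not pass (edgeR quasi-likelihood test, adjusted p = 0.138), and without Hom replicate 1 it was -0.32 (adjusted p = 0.0270). Nrp1, a VEGF co-receptor, was 0.74 lower and lost its call with library size alone. Angpt1, the ligand of Tek, rose by 1.72, and Esm1, a secreted proteoglycan of tip cells, gave 1.51 and lost its call without Hom replicate 2 and without Hom replicate 3.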
